A study of Mus musculus with 9 samples.

Results

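The enzymes of the tricarboxylic acid cycle were followed in the ovaries of juvenile mice by the transcripts of 9 genes, Cs, Idh3a, Idh3b, Idh3g, Ogdh, Sucla2, Suclg1, Fh1 and Mdh2. The members were chosen by gene name, and all 9 were found among the 52025 genes that the tables list. The libraries came from Kunming mice at postnatal day (PD) 14, 15 and 16, the days around the initial formation of the follicular antrum, with 3 libraries for each day and no treatment given in the labels. The labels give ovary as the tissue and granulosa cells as the source, whereas the study's methods describe ovaries. Transcripts are given as FPKM, in which fragments are scaled by exon length and by library depth. The exon length here joins all annotated exons of a gene, so levels of different genes compare only roughly. The question was whether the transcripts of the cycle enzymes differed between the 3 days.

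The tricarboxylic acid cycle oxidizes acetyl-CoA to carbon dioxide in the mitochondrial matrix and passes the electrons to the respiratory chain as NADH and FADH2. Citrate synthase opens it, isocitrate dehydrogenase and 2-oxoglutarate dehydrogenase carry out its oxidative decarboxylations, and succinyl-CoA synthetase, fumarase and malate dehydrogenase lead back to oxaloacetate. In growing follicles the granulosa cells supply pyruvate to the oocyte, which relies on mitochondrial oxidation because it uses glucose poorly.

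The libraries held 20.4 to 28.7 M mapped fragments, derived from the smallest steps of the FPKM values and the exon lengths of GENCODE M21. In these units each member had 1800 to 5270 fragments in a library, each within 0.0367 of a whole number. The libraries were not granulosa cells alone. The granulosa cell markers Inha and Amh averaged 2296 and 176 FPKM at PD14, and the oocyte markers Zp3 and Gdf9 averaged 349 and 242 FPKM in the same libraries. Of the 10 granulosa cell markers, 2 passed the limma test, both from PD14 to PD16 and in opposite directions, with a log2 change of 0.47 for Amh (adjusted p = 0.0223) and -0.50 for Kitl (adjusted p = 0.0494). The 12 oocyte markers summed to 1142 to 1402 FPKM at PD14, 1480 to 1585 at PD15 and 1083 to 1159 at PD16, and 3 of them are among the genes that passed the test in at least 1 comparison of days (Nlrp5, Bmp15 and Zp2). Of the 8 blood and immune markers, 7 were tested. The globin genes Hba-a1, Hbb-bs and Hbb-bt and the heme synthesis gene Alas2 were lower in every PD15 library than in every PD14 library. Of all genes tested, 20.6% did not overlap between these days, in either direction. Hba-a1 passed the limma test, and the list summed to 113 to 154, 54.3 to 72.9 and 69.8 to 125 FPKM on the 3 days. The summed levels of the endothelial, oviduct and epithelial, and fat tissue lists were highest at PD14, without overlap with either later day. From PD14 to PD16, 1 of 4 endothelial and 2 of 3 tested oviduct and epithelial genes passed by limma, all lower, against 4.25% of all genes tested. The 7 theca and interstitial markers summed to 1609 to 2231 FPKM at PD14, 1182 to 1756 at PD15 and 1211 to 1622 at PD16. Of these, Cyp11a1, which encodes the enzyme that begins steroid synthesis, was at 41.2 to 50.8, 20.2 to 34.7 and 16.8 to 46.6 FPKM. Cyp11a1, Cyp17a1 and Lhcgr were lower in every PD15 library than in every PD14 library, beside the same 20.6% of all genes tested. The study, by contrast, reports by qRT-PCR that Cyp11a1 rose at PD15 and PD16. The 6 stromal markers summed to 538 to 630, 464 to 535 and 536 to 562 FPKM on the 3 days. By limma 0 genes of either list passed in any comparison, while 2, 2 and 1 theca and interstitial markers and 2, 0 and 1 stromal markers had an unadjusted p under 0.05, for PD15 and PD16 against PD14 and for PD16 against PD15 in turn. Of the fat tissue list, which summed to 4.14 to 7.96 FPKM in any library, Plin1 was the 1 gene tested. Plin1 passed by limma as lower at PD15 and at PD16 against PD14, with log2 changes of -0.60 and -0.50. Adipoq, Ucp1, Cidec and Lep stayed at or under a mean of 0.0618 FPKM on each day. The 6 striated muscle markers summed to 4.67 to 5.90 FPKM in any library, most of it from Actn3 at 2.48 to 3.95 FPKM, and Acta1, Ckm and Myh4 stayed at or under a mean of 0.125 FPKM. The part of these shifts in the values below was not tested. In whole tissue, fewer cells of a type and less RNA in each cell cannot be told apart.

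The promoters of the members are shown here because nuclear genes of mitochondrial proteins are known to share binding motifs for NRF1 and YY1, and 3 members hold them. RefSeq promoter windows of GRCm38.p6, from 250 bases before to 50 bases after a start, were given for 8 of the 9 members, all but Idh3a. Both strands were searched for GCGCANGCG (NRF1), AANATGGCG (YY1), CCGGAAGT (GABPA), TNAAGGTCA (ERR) and GGGCGG (SP1), where N is any base. Below, capitals mark the NRF1 and YY1 matches. The Ogdh window is the one at chr11:6292329-6292628 on the plus strand, 1 of several starts of this gene, the Sucla2 window lies at chr14:73552536-73552835 on the plus strand, and the Idh3g window at chrX:73786848-73787147 on the minus strand.
Ogdh: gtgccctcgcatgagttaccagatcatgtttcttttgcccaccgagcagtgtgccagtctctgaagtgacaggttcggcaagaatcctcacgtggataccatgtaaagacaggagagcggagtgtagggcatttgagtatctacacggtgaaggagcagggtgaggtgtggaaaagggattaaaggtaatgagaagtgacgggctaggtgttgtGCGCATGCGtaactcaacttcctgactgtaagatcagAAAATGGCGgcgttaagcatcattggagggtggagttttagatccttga
Sucla2: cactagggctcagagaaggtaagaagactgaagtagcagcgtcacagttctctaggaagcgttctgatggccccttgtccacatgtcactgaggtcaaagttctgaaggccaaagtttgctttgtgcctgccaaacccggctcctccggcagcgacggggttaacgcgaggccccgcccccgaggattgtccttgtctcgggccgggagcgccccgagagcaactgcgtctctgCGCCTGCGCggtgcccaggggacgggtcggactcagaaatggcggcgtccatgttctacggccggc
Idh3g: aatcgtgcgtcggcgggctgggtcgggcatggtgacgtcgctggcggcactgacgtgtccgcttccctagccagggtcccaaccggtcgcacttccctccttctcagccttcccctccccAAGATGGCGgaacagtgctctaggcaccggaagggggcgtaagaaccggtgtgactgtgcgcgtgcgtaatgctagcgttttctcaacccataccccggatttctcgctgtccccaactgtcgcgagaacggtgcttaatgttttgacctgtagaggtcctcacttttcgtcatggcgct

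The Ogdh window held an NRF1 match that began 36 bases before the start and a YY1 match that began 1 base after it. In the Sucla2 window the NRF1 match began 16 bases before the start and was read on the opposite strand. The Idh3g window had a YY1 match that began 130 bases before the start. NRF1 letters were thus found in 2 of 8 members, against 7.03% of the 27025 genes with a promoter, and YY1 letters in 2 of 8, against 2.76%. The SP1 letters occurred in 5 of 8 members and 38.2% of all genes. GABPA and ERR letters occurred in 0 of 8 members, against 4.31% and 1.43% of all genes, which says only that these letters are not in these windows. Over the 9 libraries the r of each gene shown with the mean profile of the members was -0.250 for Ogdh, 0.263 for Sucla2 and 0.883 for Idh3g.

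Cs encodes citrate synthase, which joins acetyl-CoA and oxaloacetate, and lies at chr10:128337734-128362479 on the plus strand of mm10 (GENCODE M21 gene bounds, here and for the members that follow). Cs was at 34.8, 35.1 and 34.7 FPKM in the PD14 libraries, at 35.8, 33.4 and 31.5 at PD15, and at 34.6, 36.6 and 33.0 at PD16. The PD14 libraries lay within the range of both later days. The log2 change from PD14 was -0.055 at PD15 (SE 0.062, limma adjusted p = 0.727) and -0.0067 at PD16 (adjusted p = 0.962), with 95% intervals of -0.19 to 0.084 and -0.15 to 0.13. The study itself reports Cs as upregulated at PD15, in confirmation experiments that it gives apart from the RNA-seq. A near copy, Csl, which matches Cs transcripts at 91.9% over 1522 bases, was listed at no more than 0.0418 FPKM in any library.

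Isocitrate dehydrogenase 3 is the NAD-linked enzyme of the cycle and is built from a catalytic alpha subunit, Idh3a (chr9:54586334-54604661, plus strand), with Idh3b (chr2:130279309-130284547, minus strand) and the regulatory gamma subunit, Idh3g (chrX:73778963-73786897, minus strand). Its catalytic subunit had the lowest FPKM of the 9 members. Idh3a was at 17.1, 17.5 and 17.8 FPKM at PD14, at 19.4, 16.7 and 19.0 at PD15, and at 21.9, 21.1 and 17.3 at PD16. Replicates 1 and 2 of PD16 were above every other library, whereas replicate 3 of PD16 fell within the PD14 range. Its log2 change of 0.19 from PD14 to PD16 (SE 0.089, 95% interval -0.015 to 0.39) was the largest of the members in this comparison and did not pass the test (unadjusted p = 0.0664, limma adjusted p = 0.251). Without replicate 3 of PD16 the change was 0.28 and the limma adjusted p 0.0762.

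The other 2 subunits of the enzyme, Idh3b and Idh3g, did not pass the limma test in any comparison of days. Idh3b was at 36.3, 36.6 and 39.8 FPKM at PD14, at 34.4, 36.2 and 35.2 at PD15, and at 36.8, 36.1 and 35.4 at PD16. Every PD15 library was below every PD14 library, with 36.2 against 36.3 FPKM at the nearest, and the PD16 libraries overlapped both days. The log2 change of Idh3b was -0.087 at PD15 (95% interval -0.21 to 0.034, limma adjusted p = 0.487) and -0.054 at PD16 (adjusted p = 0.592). Its exons overlap those of Nop56 on the opposite strand by 5 bases. Idh3g was at 41.7, 41.7 and 50.4 FPKM at PD14, at 43.2, 41.4 and 43.6 at PD15, and at 47.1, 46.3 and 41.0 at PD16. Replicate 3 of PD14 was the highest and replicate 3 of PD16 the lowest of the 9 libraries, and the days overlapped. The change of Idh3g at PD16 was 0.0097 on the log2 scale, with a 95% interval of -0.18 to 0.20.

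Ogdh encodes the decarboxylating E1 component of the 2-oxoglutarate dehydrogenase complex and lies at chr11:6291633-6356642 on the plus strand. Ogdh was at 28.5, 29.7 and 26.1 FPKM at PD14, at 29.0, 30.3 and 26.2 at PD15, and at 26.2, 30.9 and 27.9 at PD16. On each day replicate 2 was the highest library, and the 3 days had nearly the same range. With log2 changes of 0.021 at PD15 (95% interval -0.16 to 0.20) and 0.011 at PD16 (95% interval -0.17 to 0.19), the day means of Ogdh, 28.1 ± 1.83, 28.5 ± 2.08 and 28.3 ± 2.36 (SD, n = 3), were the closest to each other among the members. The limma adjusted p was 0.932 and 0.951. For Ogdh, too, the study reports upregulation at PD15 in its confirmation experiments. It also reports higher activity of the 2-oxoglutarate dehydrogenase complex in ovarian homogenates at PD15, which transcript levels do not measure.

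Succinyl-CoA synthetase makes succinate and a nucleoside triphosphate, with the alpha subunit Suclg1 (chr6:73248382-73276911, plus strand) paired with an ATP-forming beta subunit, Sucla2 (chr14:73525319-73596142, plus strand), or a GTP-forming one, Suclg2. Suclg1 was at 23.7, 19.0 and 23.8 FPKM at PD14, at 17.5, 17.9 and 22.2 at PD15, and at 23.5, 21.1 and 19.9 at PD16. It had the widest spread of the members over the libraries, and the days overlapped. Sucla2 was at 22.8, 21.7 and 22.2 FPKM at PD14, at 22.4, 23.1 and 27.5 at PD15, and at 25.8, 22.4 and 21.9 at PD16. Replicate 3 of PD15 stood above the other libraries, and the days overlapped here too. From PD14 to PD15, Suclg1 had a log2 change of -0.20 (95% interval -0.45 to 0.056, limma adjusted p = 0.451) and Sucla2 one of 0.12 (95% interval -0.074 to 0.31, adjusted p = 0.555).

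Fh1 encodes fumarase and lies at chr1:175600374-175625635 on the minus strand, and Mdh2 encodes the mitochondrial malate dehydrogenase and lies at chr5:135778480-135790398 on the plus strand. Fh1 was at 33.4, 32.0 and 36.4 FPKM at PD14, at 34.8, 34.7 and 39.1 at PD15, and at 41.2, 38.0 and 32.1 at PD16. The highest library and the next to lowest were both of PD16. Mdh2 was at 50.9, 49.6 and 55.4 FPKM at PD14, at 49.6, 49.4 and 49.8 at PD15, and at 52.5, 56.4 and 47.4 at PD16. The PD15 libraries lay close together, inside the range of PD16. At PD16 the log2 change from PD14 was 0.12 for Fh1 (95% interval -0.095 to 0.33, limma adjusted p = 0.494) and 0.0018 for Mdh2 (95% interval -0.16 to 0.16, adjusted p = 0.991).

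**Figure D1:**
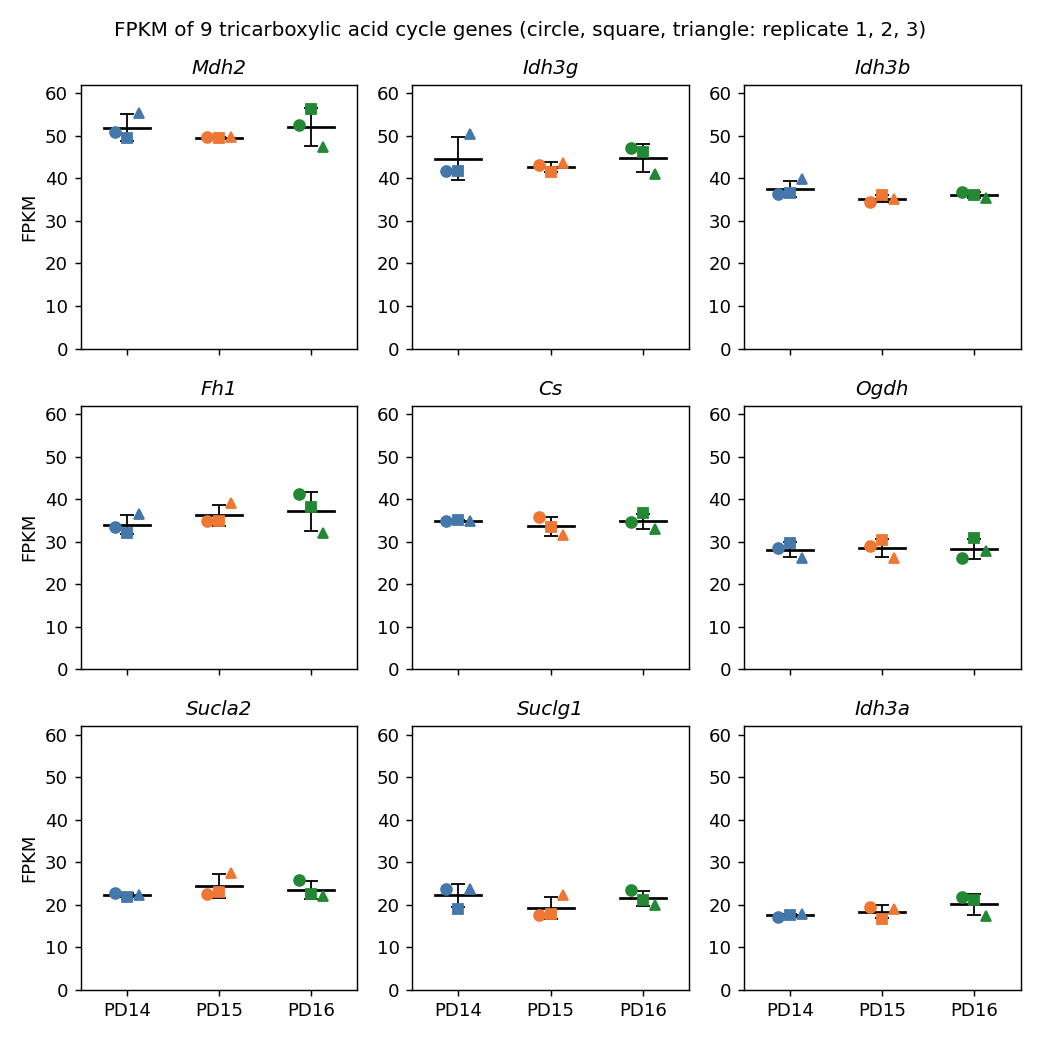
FPKM (vertical axis, from 0) of the 9 members by postnatal day (horizontal axis), with a point for each library, its replicate number given by the symbol, and a bar with whiskers for the mean and SD of 3 libraries. The levels run from 16.7 FPKM for Idh3a to 56.4 for Mdh2, and within each gene the 3 days overlap except Idh3b at PD15 against PD14.

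Among the members 0 of 9 passed an adjusted p of 0.05 in any of the 3 comparisons of days by limma, and 0 of 9 had an unadjusted p under 0.05. Over all 15495 genes tested, 0.678% passed between PD14 and PD15, 4.25% between PD14 and PD16 and 0.729% between PD15 and PD16, and 14.7%, 22.8% and 14.1% had an unadjusted p under 0.05. Over the 9 members and 3 comparisons, the largest rise that a 95% interval allowed was 0.42 (Suclg1, PD15 to PD16) and the largest fall -0.45 (Suclg1, PD14 to PD15) on the log2 scale. A p-value that misses the threshold does not show that the days were equal. Idh3b at PD15 was the 1 member of 9 whose libraries did not overlap with those of PD14, while 20.6% of all genes tested did not overlap. Between PD14 and PD16, and between PD15 and PD16, 0 of 9 members had no overlap, against 28.5% and 19.6% of all genes. The exact permutation test over all 280 groupings of the libraries into 3 days gave an unadjusted p between 0.0964 (Idh3b) and 0.939 (Ogdh) for the 9 members, where 0.00357 is the smallest p possible. The median log2 change of the members was -0.054 at PD15 and 0.0097 at PD16 against PD14, beside 0.0065 and 0.0093 for all genes tested. From PD15 to PD16 it was 0.048, beside 0.0091. When 1 library at a time was dropped, the median at PD16 against PD14 ran from -0.026 (without replicate 2 of PD16) to 0.067 (without replicate 3 of PD16), and it was below 0 without replicate 2 of PD14 or replicate 1 or 2 of PD16. The median at PD15 against PD14 ran from -0.062 (without replicate 1 of PD15) to -0.011 (without replicate 3 of PD15), and that from PD15 to PD16 from 0.010 (without replicate 2 of PD16) to 0.13 (without replicate 3 of PD16). The study describes the ovaries of each day as biologically independent, the labels do not say whether they came from separate animals, and the p-values measure the spread between these libraries.

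**Figure D2:**
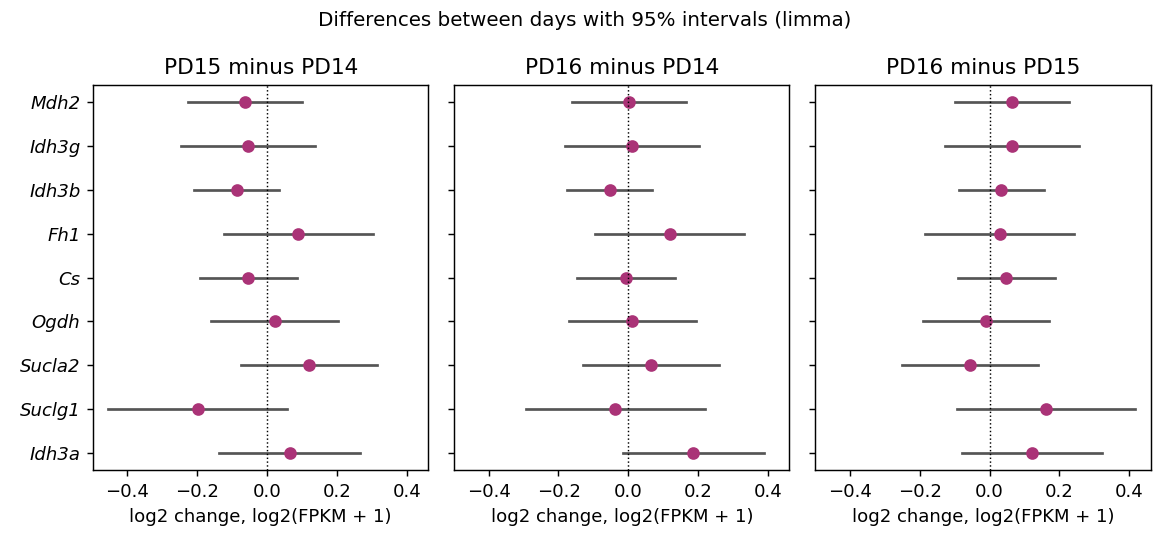
Change in log2(FPKM + 1) (horizontal axis) of each member between days, with limma's 95% interval as a line and 1 panel for each comparison. All 27 intervals contain 0, and Idh3a from PD14 to PD16, from -0.015 to 0.39, comes nearest to leaving it out.

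In FPKM the order of the levels was Mdh2, Idh3g, Idh3b, Fh1, Cs, Ogdh, Sucla2, Suclg1 and Idh3a. The means over the 9 libraries were 51.2, 44.1, 36.3, 35.8, 34.4, 28.3, 23.3, 20.9 and 18.6 FPKM in turn. Mdh2 was above Idh3g, and Idh3g above Idh3b, in 9 of 9 libraries, and Cs was likewise above Ogdh in 9 of 9. The neighbours Idh3b and Fh1, and Fh1 and Cs, exchanged places between libraries, with the first of each pair higher in 5 of 9. Ogdh was above Sucla2 in 8 of 9 libraries, and Sucla2 above Suclg1, and Suclg1 above Idh3a, in 7 of 9. Of neighbours in this order, the ranges over the libraries did not overlap between Idh3g (41.0 to 50.4 FPKM) and Idh3b (34.4 to 39.8), or between Cs (31.5 to 36.6) and Ogdh (26.1 to 30.9). The ranges of the other neighbours overlapped.

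Between libraries the members varied little. The SD of log2(FPKM + 1) over the 9 libraries ran from 0.0565 (Idh3b) to 0.167 (Suclg1) with a median of 0.101, beside 0.129 for all genes tested and 0.111 for the 2523 genes with a mean FPKM in the range of the members. The coefficient of variation was 4.12% to 11.9%. Counting error, from the number of fragments, was at most 2.36% in any library.

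The members deviated together in some libraries, and the libraries of PD16 went in opposite directions. In replicate 1 of PD16, 8 of 9 members were above their own mean over all libraries, in replicate 2 it was 7 of 9, and in replicate 3 it was 0 of 9. Of all genes tested, 52.2%, 51.8% and 47.9% were above their own mean in these libraries, and of the 2523 genes with a mean FPKM in the range of the members, 61.4%, 61.9% and 38.2%. The summed FPKM of all genes moved the same way, at 338237, 326584 and 310188. The mean deviation of the members was 0.088, 0.072 and -0.077 in these libraries on the log2 scale, against -0.011, -0.051 and 0.048 at PD14 and -0.034, -0.053 and 0.018 at PD15. For the genes in the same range of FPKM it was 0.043, 0.028 and -0.027 at PD16. The summed FPKM of the members had both its highest and its lowest value at PD16, 309.5 in replicate 1 and 276.0 in replicate 3. The 8 other subunits of the cycle deviated by 0.10, 0.065 and -0.060 at PD16, and the 19 tested nuclear subunits of the respiratory chain by 0.072, 0.046 and -0.12. For the respiratory chain subunits, replicate 3 of PD14 had a mean of 0.17 but a median of 0.088, close to the median of 0.087 in replicate 1 of PD16. Uqcrc1, one of these subunits, was at 6.30 FPKM in replicate 3 of PD14 and at 1.06 to 2.80 in the other libraries. Transcript length moved with the libraries as well. In replicate 3 of PD16 the 3676 genes with the longest exons stood at a mean deviation of 0.052 and the 3678 with the shortest at -0.023, in replicate 3 of PD14 these were at -0.062 and 0.032. With the length trend removed, the median log2 change of the members was -0.043 at PD15 and 0.0045 at PD16 against PD14, and 0.031 from PD15 to PD16. Ogdh changed sign from PD14 to PD16, from 0.011 to -0.0028 on the log2 scale. Without replicate 3 of PD16 the median log2 change of the members was 0.067 from PD14 to PD16 and 0.13 from PD15 to PD16.

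**Figure D3:**
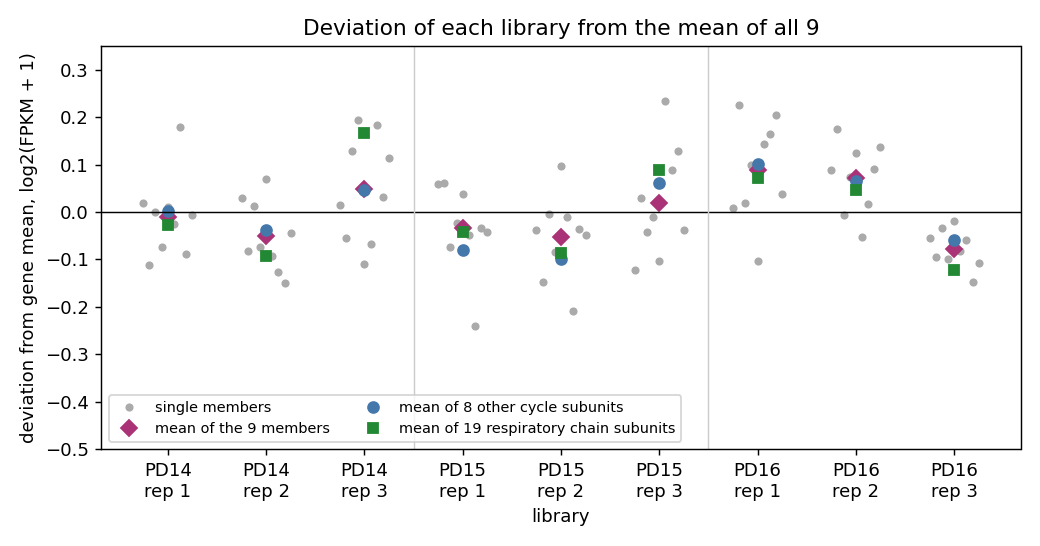
Deviation of each library (horizontal axis) from the gene's mean over all 9 libraries, in log2(FPKM + 1), for single members (grey) and for the means of the 9 members, of 8 other cycle subunits and of 19 respiratory chain subunits. Replicate 3 of PD16 holds all 9 members below 0, and the 3 means lie on the same side of 0 in 8 of 9 libraries.

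The members were also set against their partners within each library, where the depth of the library cancels. Exon length stays in each ratio, so ratios are compared between days and are not ratios of molecules. These ratios were chosen with values in view and were not tested. The share of ratios of other gene pairs whose libraries did not overlap was not computed. The ratio of the ATP-forming beta subunit to the alpha subunit, Sucla2 to Suclg1, was 1.24 to 1.29 at PD15, above the 0.932 to 1.14 of PD14 and the 1.06 to 1.10 of PD16. Sucla2 to its GTP-forming counterpart Suclg2 was 0.994 to 1.14 at PD15 and 0.854 to 0.945 at PD14, and PD16 overlapped both (0.861 to 0.999). The catalytic Idh3a to Idh3b was 0.448 to 0.477 at PD14, 0.461 to 0.563 at PD15 and 0.489 to 0.595 at PD16, so that every PD16 library was above every PD14 library. Idh3a to Idh3g moved likewise, from 0.354 to 0.419 at PD14 to 0.423 to 0.464 at PD16, while Idh3b to Idh3g overlapped on all days (0.780 to 0.878). Fh1 to Mdh2, the enzymes that act in sequence, was 0.646 to 0.657 at PD14, 0.701 to 0.784 at PD15 and 0.674 to 0.784 at PD16. The mitochondrial Mdh2 to the cytosolic Mdh1 was 0.652 to 0.731 at PD14 and 0.528 to 0.639 at PD16, with PD15 across both (0.480 to 0.680).

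**Figure D4:**
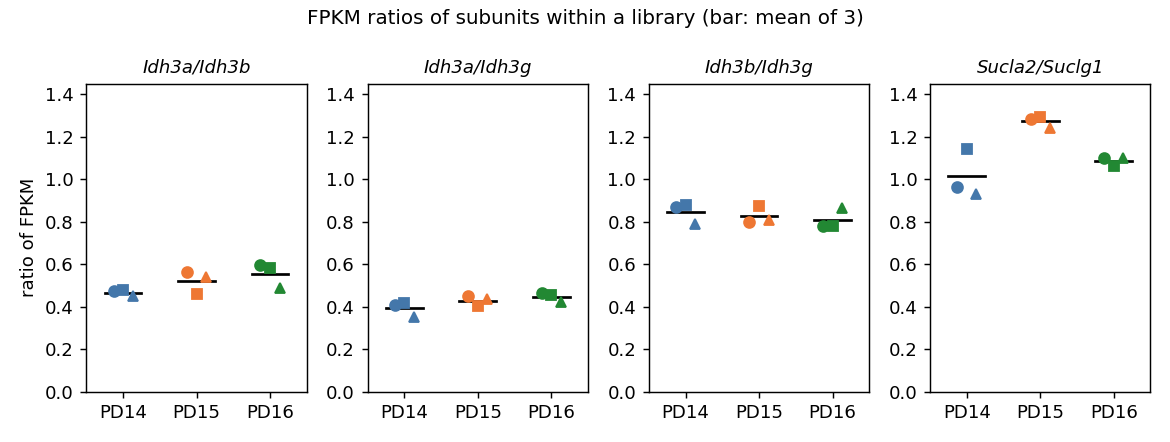
Ratio of FPKM (vertical axis, from 0) of subunits of isocitrate dehydrogenase 3 and of succinyl-CoA synthetase in each library by day, with a bar for the mean of 3 libraries and symbols for the replicate number as circle, square and triangle for 1, 2 and 3. Sucla2 to Suclg1 is highest at PD15, at 1.24 to 1.29, and Idh3a to Idh3b is 0.448 to 0.477 at PD14 against 0.489 to 0.595 at PD16.

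Subunits of the same enzyme were compared over the 9 libraries by exact permutation tests, two-sided and adjusted over 4 pairs. Idh3b and Idh3g had a Pearson r of 0.689 (exact p = 0.0403, adjusted p = 0.161; Spearman rho 0.383, adjusted p = 0.625), and Idh3a and Idh3g an r of 0.554 (exact p = 0.122, adjusted p = 0.243; rho 0.733, adjusted p = 0.124). For Sucla2 and Suclg1, r was 0.381 (exact p = 0.326, adjusted p = 0.435; rho 0.167, adjusted p = 0.904), and for Idh3a and Idh3b it was -0.116 (exact p = 0.776, adjusted p = 0.776; rho -0.050, adjusted p = 0.912). None of the 4 pairs passed over the 9 libraries. Without the 2 libraries farthest from the median of the first gene, r was 0.293, 0.300, -0.041 and -0.362, in the same order. Leaving out replicate 3 of PD14 alone, the library with the highest Idh3g, raised the r of Idh3a and Idh3g to 0.974 (exact permutation, adjusted p = 0.00298) and took that of Idh3b and Idh3g to 0.197. As deviations from the mean of each day, with the libraries permuted within days, Sucla2 and Suclg1 had an r of 0.834 (exact p = 0.00926, adjusted p = 0.0370; rho 0.817, adjusted p = 0.0370) and Idh3a and Idh3g one of 0.662 (exact p = 0.0185, adjusted p = 0.0370; rho 0.717, adjusted p = 0.0556). Idh3b with Idh3g, at an r of 0.780, did not pass within days (exact p = 0.0833, adjusted p = 0.111). Pairs of other genes were not compared in this way. Genes in the members' range of FPKM also shifted together by library. In replicates 1, 2 and 3 of PD16, 61.4%, 61.9% and 38.2% of them were above their own mean.

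Among all genes tested, the 5 outside the member list whose profile over the 9 libraries was most like the mean profile of the members, by Pearson r, were Hnrnpk (0.970), the processed pseudogene Gm10146 (0.955), Atp5a1 (0.951), Ncaph2 (0.949) and Aifm1 (0.944). These are descriptions over 9 libraries picked from 15495 genes. Atp5a1 encodes the alpha subunit of the mitochondrial ATP synthase and was at 294 and 291 FPKM in replicates 1 and 2 of PD16 and at 246 in replicate 3, its lowest library. Hnrnpk, an RNA-binding protein, likewise had its lowest library in replicate 3 of PD16, at 128 FPKM. Among the members themselves, Mdh2 (0.929) and Idh3g (0.883) were closest to the mean profile to which they contribute, and Ogdh (-0.250) was the 1 member with a negative r.

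The other genes of the pathway were taken from 7 lists. The 8 other subunits of the cycle itself had 0 of 8 past the threshold by limma in each comparison, with an unadjusted p under 0.05 in 1, 0 and 1 of them from PD14 to PD15, PD14 to PD16 and PD15 to PD16. Sdhc, a membrane anchor of succinate dehydrogenase, was at 32.9, 29.4 and 31.8 FPKM at PD14, 26.8, 27.0 and 28.3 at PD15, and 33.2, 34.0 and 29.7 at PD16. Its PD15 libraries were below those of both other days (log2 change -0.19 from PD14, limma adjusted p = 0.235). Dlst, the E2 partner of Ogdh, was at 55.5 to 58.6 FPKM at PD14 and 59.8 to 60.7 at PD16 (log2 change 0.071, adjusted p = 0.433). The median log2 change of this list was -0.043 at PD15 and 0.039 at PD16 against PD14.

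At the entry of pyruvate into the cycle, 1 of 12 genes passed the test, in 1 comparison. Pdk2, a kinase that inactivates pyruvate dehydrogenase, fell from 15.4, 14.9 and 14.7 FPKM at PD14 to 10.9, 12.8 and 11.4 at PD16, with 13.1, 14.2 and 12.6 at PD15. All libraries of PD16 were below those of PD14, and the log2 change was -0.34 (SE 0.069, limma adjusted p = 0.0314). The limma call was lost under 4 other settings, among them TPM scaling (adjusted p = 0.0688) and no filter on low values (adjusted p = 0.0721), and without any 1 of the PD14 libraries or replicate 1 or 3 of PD16 (adjusted p = 0.0658 to 0.105). Pdk1, another kinase of the family, was at 3.63 to 5.85 FPKM at PD14, 6.20 to 7.97 at PD15 and 3.89 to 4.51 at PD16, and did not pass in any comparison (limma adjusted p = 0.171 for a log2 change of 0.46 from PD14 to PD15, and 0.101 for one of -0.57 from PD15 to PD16).

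Of the anaplerosis and glutamine list, 10 of 11 genes were tested and 1 passed, in 1 comparison. Pck2, the mitochondrial phosphoenolpyruvate carboxykinase that draws on oxaloacetate, fell from 37.9, 39.8 and 40.2 FPKM at PD14 to 28.3, 34.0 and 27.3 at PD16, with 33.2, 34.6 and 29.3 at PD15. The libraries of both later days were all below those of PD14, and the log2 change at PD16 was -0.39 (SE 0.090, limma adjusted p = 0.0454). This call was lost under 6 of the other settings (limma adjusted p = 0.0539 to 0.103) and without any 1 library except replicate 3 of PD15 and replicate 2 of PD16 (up to 0.144).

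In the remaining 4 lists 0 genes passed in any comparison by limma. Of 8 tested NADP-linked and cytosolic counterparts, 1, 2 and 2 had an unadjusted p under 0.05, in the same order of comparisons, among them the cytosolic aconitase Aco1 at 31.3 to 33.5 FPKM at PD14, 28.4 to 29.7 at PD15 and 27.0 to 29.8 at PD16 (log2 change -0.19 at PD16, adjusted p = 0.0874). Of 4 assembly factors of succinate dehydrogenase, 1, 0 and 1 did, with Sdhaf4 at 15.5 to 19.0, 20.3 to 27.0 and 15.1 to 20.3 FPKM on the 3 days and Sdhaf1 at 1.47 to 1.55, 1.26 to 1.33 and 1.22 to 1.48. Of 8 tested regulators of mitochondrial biogenesis, 0, 2 and 0 did. With Ppargc1a and Ppargc1b, which were too low to be tested, the 10 listed regulators summed to 75.6 to 76.2 FPKM at PD14, 76.5 to 79.5 at PD15 and 81.7 to 83.2 at PD16. Tfb2m, a mitochondrial transcription factor, was at 9.78 to 10.3 FPKM at PD14 and 11.3 to 13.1 at PD16 (log2 change 0.27, limma adjusted p = 0.0894), and Esrra, which encodes the nuclear receptor ERR alpha, at 6.95 to 7.78 and 5.67 to 7.20 (-0.18, adjusted p = 0.223). Among 19 tested nuclear subunits of the respiratory chain, 1, 1 and 0 had an unadjusted p under 0.05. Ndufv1, a core subunit of complex I, was at 47.2 to 50.4 FPKM at PD14, 45.7 to 46.4 at PD15 and 42.5 to 44.6 at PD16, so that the 3 days did not overlap (log2 change -0.16 at PD16, limma adjusted p = 0.0954). Between PD14 and PD16 alone, 28.5% of all genes tested did not overlap, and the share with all 3 days apart was not computed. Cox5b of complex IV was at 57.1 to 67.7, 51.0 to 60.3 and 59.6 to 61.1.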

How the data were processed

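RNA was sequenced from mouse ovaries, 9 libraries in all. The authors deposited FPKM in a table for each library, made with HISAT2 2.0.5 and mm10 per the submitters' processing notes. The counter and annotation are not given in the sources used here, and strand use is likewise not given, so reads of overlapping genes on opposite strands may be shared. FPKM was analysed as log2(FPKM + 1), so fold changes of low genes are understated. Tests covered genes whose mean FPKM exceeded 1 on any day and used limma with an intensity trend, all 9 libraries in 1 model, with Benjamini-Hochberg adjustment over all 15495 genes. Changes are differences of day means. Single members were also tested by exact permutation. Exon lengths came from GENCODE M21, which held 97.0% of the identifiers. Depth was found by searching for the total that makes low FPKM whole numbers of fragments. Of these values 94.9% to 95.5% came out whole within 0.02 fragments. Near copies were searched with blastn among annotated transcripts. In Pck2's list, Pc was matched by the symbol Pcx. The values of 1 listed gene are not reported here.

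The members and lists were chosen with earlier results of these data known. The pathway genes named were those past the threshold and, in each list without one for a comparison with PD14, the gene with the smallest p there. The procedure was tested on simulated data. Alternatives were other pseudocounts, filters, scalings and limma settings, a replicate block, each pair of days alone, each library left out and, chosen after seeing the data, removal of the length trend. Models were fitted with limma 3.58.1 in R 4.3.3, and the rest was computed with SciPy 1.17.1, NumPy 2.4.6 and pandas 2.3.3 in Python 3.11.15 and drawn with Matplotlib 3.10.9.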

Additional observations from a re-analysis of the deposited data

How the results depend on the processing

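Of 567 log2 changes of members over 21 alternatives, 538 kept their sign and 29 took the other, and 0 passed the threshold (smallest limma adjusted p 0.0762). Depth set a counting error of at most 2.36% for a member in a library. From PD14 to PD15, array weights gave Dlst 0.0073. From PD14 to PD16, TPM scaling gave Idh3g -0.015, Ogdh -0.014 and Mdh2 -0.023, median-ratio scaling Mdh2 -0.0055, array weights Cs 0.015, and removal of the length trend Ogdh -0.0028. Genes past the threshold from PD14 to PD15, 105 as analysed, numbered 29 without the filter, 63 above a mean FPKM of 5, 184 with array weights and 46 with only the 2 days compared. From PD14 to PD16, 659 became 172 without the filter, 397 with TPM scaling and 323 with only the 2 days, and the 2 pathway genes became 0 under these 3 settings and 1 without the trend or with array weights. From PD15 to PD16, 113 became 24 without the filter and 237 with array weights. As deviations from day means, r was 0.135 for Idh3a and Idh3b, 0.662 for Idh3a and Idh3g and 0.834 for Sucla2 and Suclg1. The cause of these shifts was not tested.

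With each library left out in turn, genes past the threshold ranged from 3 (without PD15 replicate 1) to 92 (without PD16 replicate 3), 92 (without PD16 replicate 1) to 660 and 14 (without PD15 replicate 1) to 125, in the order PD14 to PD15, PD14 to PD16, PD15 to PD16. Of the 9 libraries, 8, 6 and 7 moved these counts by over 1.5 times, all but PD16 replicate 3, the 3 PD15 libraries, and PD14 replicates 1 and 2. Pathway genes past it from PD14 to PD16 ranged from 0 to 2, and the members' median from -0.062 to -0.011, -0.026 to 0.067 and 0.010 to 0.13 in the 3 comparisons. Pair correlations ranged from -0.253 to 0.036 (Idh3a and Idh3b), 0.447 to 0.974 (Idh3a and Idh3g), 0.197 to 0.744 (Idh3b and Idh3g) and 0.249 to 0.533 (Sucla2 and Suclg1). Signs changed from PD14 to PD15 for Idh3g (-0.099 to 0.035), Ogdh (-0.029 to 0.078) and Dlst (-0.026 to 0.013). From PD14 to PD16 they changed for Cs (-0.044 to 0.028), Idh3g (-0.035 to 0.099), Ogdh (-0.051 to 0.063), Sucla2 (-0.0051 to 0.11), Suclg1 (-0.14 to 0.014), Mdh2 (-0.056 to 0.067), Pdk1 (-0.26 to 0.021), Sdhaf4 (-0.048 to 0.16) and Sdhc (-0.0037 to 0.099), and from PD15 to PD16 for Ogdh (-0.072 to 0.042), Sucla2 (-0.13 to 0.032), Fh1 (-0.048 to 0.13), Esrra (-0.12 to 0.028) and Sdhaf1 (-0.025 to 0.057).

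Replicate numbers did not pair the libraries. Deviations of libraries with the same number correlated at -0.214 to 0.159 across genes, and those with different numbers, of different days, at -0.196 to 0.211. With the number as a replicate block, 24, 227 and 56 genes passed in the 3 comparisons and 0 of the 2 pathway genes, and the members kept 0.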

Other observations

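Ndufs3, a core subunit of complex I that cells with a respiratory chain use, was listed at 0 to 0.384 FPKM in the 9 libraries and was not tested, and it was singled out after its values were seen. Gabpa, which encodes a DNA-binding subunit of the factor NRF2, was likewise chosen after its values were seen. It was at 15.0 to 16.9 FPKM at PD14, 17.0 to 17.7 at PD15 and 17.9 to 19.3 at PD16, so that the days did not overlap. Of all genes tested, 20.6% did not overlap between PD14 and PD15, 28.5% between PD14 and PD16 and 19.6% between PD15 and PD16. The share with all 3 days apart was not computed. The log2 change of Gabpa from PD14 to PD16, 0.17, did not pass (limma adjusted p = 0.129).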
